A study of Homo sapiens with 8 samples.

Results

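The 10 genes described here, TNFAIP3, TNIP1, BIRC2, BIRC3, XIAP, CFLAR, TRAF1, TRAF2, TRAF3 and CYLD, encode A20, the inhibitor of apoptosis proteins, the TNF receptor-associated factors (TRAF) and their partners. They were taken by symbol as 10 of the 19475 rows of the mRNA table, and their m6A peaks merged into 35 of 22001 regions. They were selected on the difference of their FPKM between treatments and on the presence of their peaks, so the values below describe them. No p-value for their mRNA difference is printed. Their calls, intervals and counts of calls are a description and not a test. N6-methyladenosine, or m6A, is a methylated base in mRNA and was mapped in HCT116, a human colorectal carcinoma line. Control cells received PBS and F. nucleatum cells received Fusobacterium nucleatum, a bacterium found in colorectal tumours, for 2 h, and all groups were otherwise the same unmodified line. Fragments of poly(A) RNA were enriched with an antibody against m6A (IP) and sequenced together with fragments left unselected (input), so that 2 input and 2 IP libraries stood for each treatment in 4 groups. The mRNA levels came from the 4 inputs, and each of the 4 peak lists compared 1 IP with an input.

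TNF and bacterial products act on receptors that assemble TRAF2, the cIAP ubiquitin ligases and kinases into a complex at the membrane. Ubiquitin chains built in that complex activate NF-kB, while A20 and CYLD edit or remove the chains. A20 and cIAP2 are themselves well-known NF-kB targets, which is why they are described as feedback genes. Other members limit caspases: c-FLIP at caspase-8 and XIAP at the executioner caspases.

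The mRNAs of A20 and cIAP2 rose from below 1 FPKM (fragments scaled by transcript length and by the total mapped) to about 4 FPKM after F. nucleatum, 5.33-fold for TNFAIP3 and 9.40-fold for BIRC3. Both mRNAs also carried longer m6A peaks in the F. nucleatum lists. The BIRC2, XIAP and CFLAR mRNAs had both F. nucleatum libraries above both Control libraries, by smaller ratios of 1.24, 2.43 and 1.05. TNIP1, TRAF1, TRAF2, TRAF3 and CYLD overlapped between the groups. Of the 9 genes that reached a mean of 1 FPKM and were fitted, 2 were called higher and 0 lower by limma at an adjusted p under 0.05. Over all 11088 genes fitted, 0.667% were called higher and 0.135% lower, and 0.803% in either direction. Both F. nucleatum libraries lay above both Control libraries in 5 of the 9, against 26.1% of all genes, and below in 0, against 21.1%. These shares are printed for scale only, since the same contrast was used to choose the genes. The median log2 fold change of the 9 genes was 0.106, against 0.0136 for all genes fitted.

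**Figure D1:**
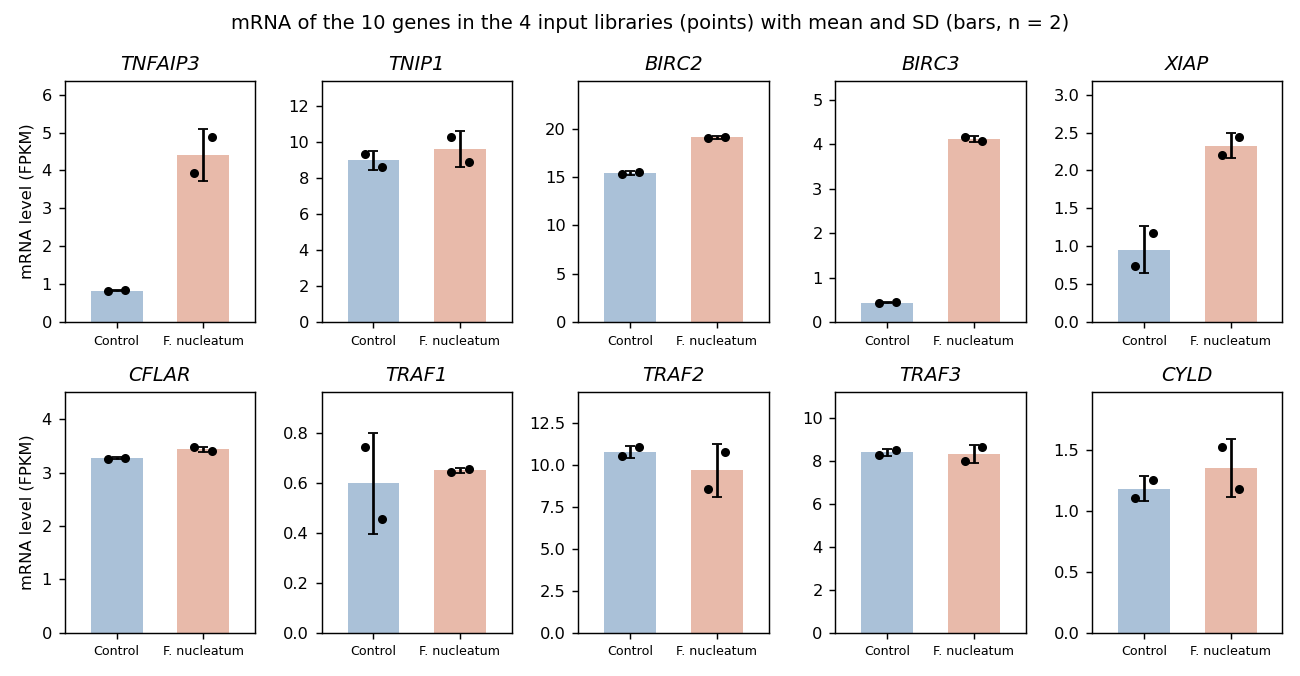
mRNA level in FPKM of each gene in the Control and F. nucleatum input libraries, where points are libraries, bars are means and whiskers are SD (n = 2), and each panel has its own axis from 0. The points of TNFAIP3, BIRC2, BIRC3, XIAP and CFLAR do not overlap between the groups, while those of TNIP1, TRAF1, TRAF2, TRAF3 and CYLD overlap.

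The sequences below are the GGAC motif, the core of the common m6A consensus, found nearest the middle of the regions on which the comparison of A20 and the cIAPs turns. Each window is 24 nt of hg19 (GRCh37) on the plus strand, with GGAC in capitals. A match describes the sequence and is not a mapped methylation site.
TNFAIP3 coding region (chr6:138200161-138200184): gatgttaccaGGACatttaatggg
TNFAIP3 3′UTR region (chr6:138202785-138202808): ctgcgcatcaGGACtgcttcatcg
BIRC2 (chr11:102221212-102221235): ttattatataGGACctggagatag
BIRC3 start region (chr11:102195822-102195845): ttactacataGGACctggagacag
BIRC3 coding region (chr11:102198798-102198821): aagaattaaaGGACaggagttcat

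TNFAIP3 encodes A20, a ubiquitin-editing enzyme that restrains NF-kB signalling. Its mRNA was 0.816 and 0.838 FPKM in Control 1 and 2 and 3.93 and 4.89 FPKM in F. nucleatum 1 and 2. The groups did not overlap, and the F. nucleatum libraries differed from each other more than the Control libraries did. The log2 fold change of FPKM + 1 was 1.56 (SE 0.116, 95% interval 1.27 to 1.85). Adding 1 to such low levels makes this smaller than the ratio of the means. This call was lost without F. nucleatum 2, where the log2 fold change is taken from 1 treated library.

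TNFAIP3 carried 2 m6A regions, and both had a peak in all 4 lists. The coding region lay in exons 6 to 8 of the 9 exons of the canonical transcript (chr6:138198297-138201211, plus strand, 1021 nt of exon). The peaks there covered 271 and 301 nt in Control 1 and 2 and 1021 and 841 nt in F. nucleatum 1 and 2. The Control peaks, at transcript positions 1789 to 2059 and 1399 to 1699, did not touch each other, and each F. nucleatum peak spanned both. The authors' peak p, for IP against input, was 2.2e-05 for Control 1 and 0.00012 for Control 2. After F. nucleatum it was 1e-30 and 4e-19. This p is not a fold enrichment, and it also depends on how many fragments were read. The GGAC window printed for this region was inside the peaks of Control 1 and both F. nucleatum lists.

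The other TNFAIP3 region began 42 nt before the end of the coding sequence and extended 709 nt into the 3′UTR, all in exon 9 (chr6:138202412-138203162, plus strand). Peaks there had 181 and 392 nt in Control against 661 and 751 nt in F. nucleatum. The p was 6.6e-05 and 0.00058 against 7.9e-18 and 3.2e-20, so both regions were shorter and had a larger p in each Control list. Over the gene, covered length rose from 572.5 ± 170.4 to 1637 ± 63.6 nt (SD, n = 2), a ratio of 2.86. Peaks took up 9.7% and 14.9% of the canonical transcript in Control, against 36.1% and 34.1% after treatment.

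BIRC3 encodes cIAP2, a ubiquitin ligase recruited through TRAF2. Its mRNA was 0.429 and 0.449 FPKM in Control and 4.17 and 4.08 FPKM in F. nucleatum. The libraries of each group were close together and the groups were far apart. The log2 fold change of FPKM + 1 was 1.83 (SE 0.0896, 95% interval 1.61 to 2.06), the largest of the 9 fitted genes and the 11th largest in size of all genes fitted.

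BIRC3 had 2 m6A regions. The region at the start of the protein lay in exon 2 and held 162 nt of 5′UTR and 796 nt of coding sequence (chr11:102195079-102196036, plus strand). Control 1 had no peak there, and Control 2 had a peak of 91 nt with a p of 0.006. F. nucleatum 1 and 2 had peaks of 958 and 838 nt with p of 7.9e-36 and 4e-25. The GGAC window was inside both F. nucleatum peaks and outside the Control 2 peak. The other region, in the coding part of exons 3 to 7 (chr11:102196229-102206916, plus strand), had no peak in either Control list. It covered 659 nt in F. nucleatum 1 (p 7.9e-30) and 480 nt in F. nucleatum 2 (p 1.3e-15), so it counted as gained, meaning a peak in both F. nucleatum lists and in neither Control list. Its window was inside the F. nucleatum 1 peak only. Over the gene, covered length was 45.5 ± 64.3 nt in Control and 1467.5 ± 211.4 nt in F. nucleatum (SD, n = 2).

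A peak can be called only where enough fragments are read, and the lists hold no value where none was called. BIRC3 averaged 0.439 FPKM in Control. Of the 1479 genes within 2-fold of that level in the Control inputs, 41.9% had a peak in at least 1 Control list and 25.8% in both. At the F. nucleatum level of BIRC3, 4.12 FPKM, the shares in the F. nucleatum lists were 81.7% and 74.0% of 3842 genes. For TNFAIP3 the corresponding shares were 61.3% and 45.5% at its Control level and 81.8% and 74.3% at its F. nucleatum level. The mRNA of BIRC3 was higher where more of its peaks were called, and that of TNFAIP3 was higher where its peaks were longer. XIAP mRNA was 2.43-fold higher. Its covered length overlapped between the groups, at 212 and 300 nt in Control and 240 and 210 nt in F. nucleatum (ratio 0.879). The part of the mRNA level in the peaks of these genes was not tested.

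The same comparison over all 11155 peak names gives the scale of these changes. Covered length was above both Control lists in both F. nucleatum lists for 14.3% of names, including TNFAIP3 and BIRC3, and in 3.9% the mean was also at least 2-fold higher, which again held for both. Covered length was below both Control lists in both F. nucleatum lists for 17.8% of names, TNIP1 and TRAF2 included. Among the 66 genes with a peak whose mRNA was called higher, 28.8% were wider, 6.06% at least 2-fold wider and 16.7% shorter. TNFAIP3 and BIRC3 are themselves among these 66, and they were 2 of the 4 genes at least 2-fold wider. The lowest peak p was smaller in both F. nucleatum lists for 14.8% of all names and for 59.1% of those 66 genes. Of the 10 genes, TNFAIP3, BIRC2 and BIRC3 had this pattern. The lowest p was larger in both F. nucleatum lists for 17.8% of all names and 1.52% of the 66 genes, and for TRAF1, TRAF2 and TRAF3 among the 10, where a list without a peak counted as larger.

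**Figure D2:**
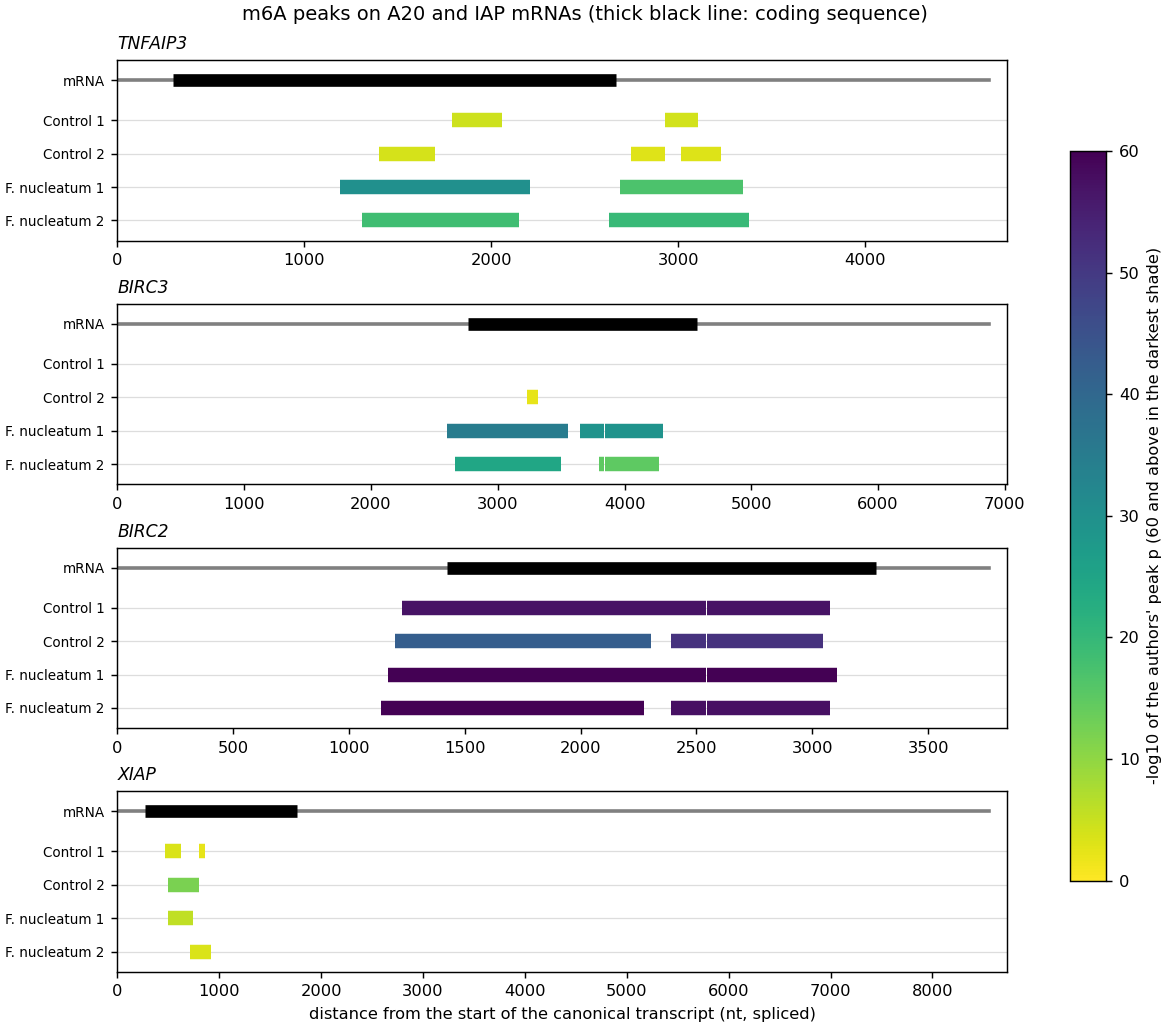
m6A peaks on TNFAIP3, BIRC3, BIRC2 and XIAP along the spliced canonical transcript (nt from its start, 1 row for each peak list, colour for −log10 of the authors' p, thick black line for coding sequence). Peaks on TNFAIP3 and BIRC3 are longer and darker in both F. nucleatum lists, while those on BIRC2 are long and dark in all 4 lists and those on XIAP are short in all 4.

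BIRC2 encodes cIAP1, the paralog of cIAP2, and lies next to BIRC3 on chromosome 11 with 7807 bp between the genes. Its mRNA was 15.3 and 15.5 FPKM in Control and 19.0 and 19.2 FPKM in F. nucleatum. The groups did not overlap, but the log2 fold change was only 0.29 (SE 0.063, 95% interval 0.13 to 0.45) and the gene was not called. Unlike BIRC3, BIRC2 had a long region in all 4 lists, over 8 exon blocks with 281 nt of 5′UTR and 1688 nt of coding sequence (chr11:102220305-102248745, plus strand). Listed as Control 1, Control 2, F. nucleatum 1 and F. nucleatum 2, its length was 1850, 1761, 1939 and 1821 nt, with p of 1e-57, 4e-52, 2e-75 and 2e-66. Covered length overlapped between the groups, with a ratio of 1.04.

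The coding sequences of the paralogs, 1854 nt for BIRC2 and 1812 nt for BIRC3, were identical at 79.4% of aligned positions, with a longest identical run of 60 nt. The A of the GGAC windows fell in codon 213 of BIRC2 and codon 198 of BIRC3, and these positions were aligned with each other. The BIRC2 and BIRC3 windows printed above were identical at 21 of 24 positions. Counted from 1 at the 5′ end of the window, with the BIRC2 base first and the BIRC3 base last, the differences were T4C, T7C and T22C. Both paralogs thus had a peak over the same GGAC in F. nucleatum cells, and only BIRC2 had one over it in Control cells. The Control 2 peak of BIRC3 ended at position 102195797, shortly before its window. In Control, BIRC3 averaged 0.439 FPKM and BIRC2 15.4 FPKM, and the part of this difference in the missing call was not tested. Only fragments at the short end of the range of 60 to 200 nt can match both genes exactly over their whole length. How multiply aligned reads were counted is not given in the sources used here, so the BIRC3 values are uncertain to that extent.

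XIAP encodes a direct inhibitor of caspases. Its mRNA was 0.739 and 1.18 FPKM in Control and 2.21 and 2.45 FPKM in F. nucleatum. The groups did not overlap, and the log2 fold change was 0.77 (SE 0.136, 95% interval 0.43 to 1.11), but the gene was not called. The Control libraries differed from each other more than the F. nucleatum libraries did. Its single m6A region lay in the coding part of exon 2 (chrX:123019710-123020159, plus strand) and was present in all 4 lists. It covered 212, 300, 240 and 210 nt, with p of 0.00049, 1e-12, 1.6e-06 and 0.00035 in the order given for BIRC2, so the strongest call was in Control 2 and the groups overlapped. The peak of F. nucleatum 2, at transcript positions 711 to 920, lay downstream of most of the F. nucleatum 1 peak at 501 to 740. Peaks of XIAP covered no more than 3.5% of its 8558 nt transcript in any list, and its long 3′UTR of 6794 nt had none.

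CFLAR encodes c-FLIP, which holds caspase-8 in check at the receptor complex. Its mRNA was 3.26 and 3.28 FPKM in Control and 3.47 and 3.40 FPKM in F. nucleatum. The F. nucleatum libraries were higher, by a ratio of 1.05, and the log2 fold change of 0.05 (SE 0.082, 95% interval -0.15 to 0.26) was within its error. CFLAR had many peaks, namely 16 and 15 in the lists of Control 1 and 2, and 18 and 20 after F. nucleatum. No other of the 11155 peak names had more in any list. In Control 1 it shared the highest number with 1 other name and in Control 2 with 2, while after F. nucleatum the next name had 13 peaks (library 1) and 12 peaks (library 2).

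The CFLAR peaks formed 19 of the 35 regions. The one with the lowest p crossed the start codon in exon 2 of the canonical transcript (chr2:201994452-201997720, plus strand), covering 421, 451, 451 and 391 nt with p of 7.9e-26, 1e-17, 4e-35 and 7.9e-26. Both its covered length and its p overlapped between the groups. In the 3′UTR of the last exon, which takes up 12717 of the 14612 nt of the transcript, lay 9 regions, but just 2 were called in all 4 lists. They covered 1953 and 1654 nt in Control and 2226 and 1956 nt in F. nucleatum. A further 6 regions lay in introns of the canonical transcript, 4 of them present in all 4 lists, and covered 1233 and 2132 nt in Control and 1833 and 1804 nt in F. nucleatum. Of these 6, 5 were inside the last exon of a shorter coding transcript, CFLAR-205, an exon of 3680 nt (chr2:202000921-202004600). The remaining 4 regions lay at the start, in coding exons or across exon borders. Covered length over the whole gene was 4298 and 5379 nt in Control and 5532 and 4993 nt in F. nucleatum, which overlapped. No CFLAR region was gained or lost when peaks sharing 1 base were merged, but 2 were gained when only peaks with a p of at most 0.001 were used and 1 with a reciprocal overlap of 50%.

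**Figure D3:**
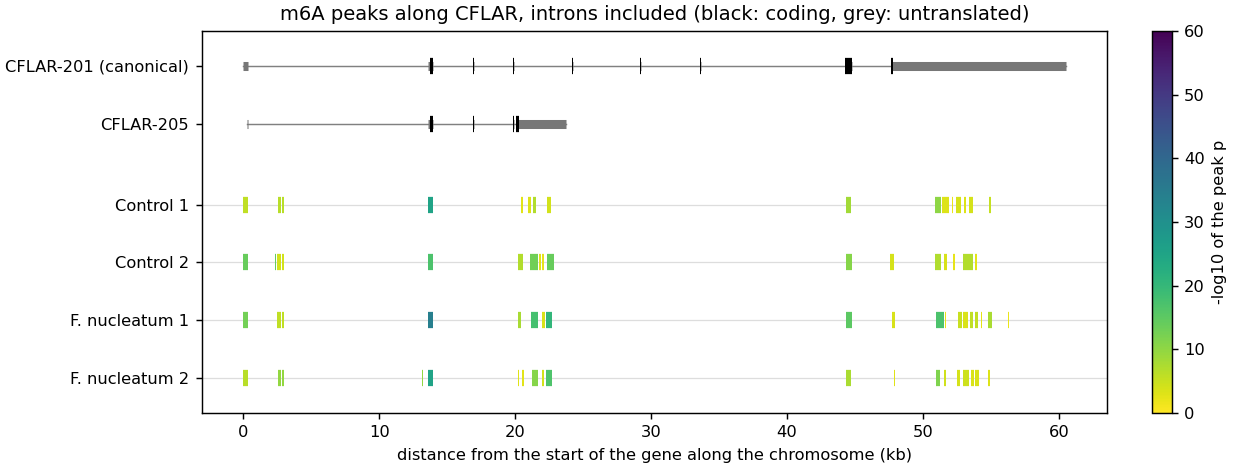
m6A peaks along CFLAR with introns included (kb from the gene start, 1 row for each peak list, colour for −log10 of the authors' p) below the exons of the canonical transcript and of CFLAR-205. Clusters of peaks stand over the long last exon of each transcript in all 4 lists, and the darkest peak is at the start of the coding sequence.

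The TRAF proteins link receptors to the cIAPs and to kinases. TRAF1, an inducible member without a RING domain, was low in all inputs, at 0.743 and 0.456 FPKM in Control and 0.644 and 0.658 FPKM in F. nucleatum. The groups overlapped, and the gene stayed below the mean of 1 FPKM needed for the fit. Its 3 m6A regions all lay in the 3′UTR and were weak. The first (chr9:123666764-123667272, minus strand) covered 449, 210 and 301 nt in Control 1, Control 2 and F. nucleatum 1, with p of 4.2e-05, 0.00045 and 0.00056, and had no peak in F. nucleatum 2. The next (chr9:123666495-123666644, minus strand) had peaks of 90 and 120 nt in Control 1 and 2, with p of 0.00028 and 0.0019, and none in F. nucleatum, so it counted as lost. It did not count as lost when only peaks with a p of at most 0.001 were used. The GGAC window of this region, the only lost region among the 10 genes, was inside the Control 2 peak only and is read on the minus strand:
TRAF1 3′UTR (chr9:123666582-123666605): aacccccactGGACtgacctggtc
The third region was in F. nucleatum 1 alone (p 0.00065). F. nucleatum 2 had no TRAF1 peak at all, at an mRNA level close to that of F. nucleatum 1. Among the genes within 2-fold of the TRAF1 level, 52.5% had a peak in at least 1 F. nucleatum list and 35.5% in both, so a missing call was common there.

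TRAF2, the adaptor that brings cIAPs to the receptor, was 10.5 and 11.0 FPKM in Control and 8.56 and 10.8 FPKM in F. nucleatum. F. nucleatum 1 was the lowest, the groups overlapped, and the log2 fold change was -0.15 (SE 0.115, 95% interval -0.44 to 0.14). Its region crossed the stop codon in exons 10 and 11 (chr9:139818307-139820738, plus strand). The peaks covered 750 and 660 nt in Control and 480 and 510 nt in F. nucleatum, with p of 6.3e-24 and 2e-32 against 1.6e-23 and 6.3e-18. Both F. nucleatum peaks were shorter than both Control peaks (ratio 0.702), a pattern shared by 17.8% of all peak names, and the p was also larger in both, again as in 17.8% of names.

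TRAF3, which with TRAF2 and the cIAPs keeps the NF-kB-inducing kinase low, was 8.28 and 8.54 FPKM in Control and 8.03 and 8.65 FPKM in F. nucleatum, with a log2 fold change of -0.01 (SE 0.077, 95% interval -0.20 to 0.18). Its main region was the strongest of all 35 by p and held 711 nt of coding sequence and 426 nt of 3′UTR in exons 11 and 12 (chr14:103369625-103372544, plus strand). Lengths were 1107 and 1137 nt in Control and 1078 nt in each F. nucleatum list, and p was 1.6e-68, 6.3e-84, 5e-66 and 1.6e-43 in the order given for BIRC2. Both F. nucleatum peaks were shorter and had a larger p than both Control peaks. A short region far down the 3′UTR (chr14:103377000-103377239) was called in all lists but F. nucleatum 1, and another in F. nucleatum 1 alone. The covered length of the gene overlapped between the groups.

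TNIP1 encodes ABIN-1, which binds A20 and ubiquitin chains. Its mRNA was 9.38 and 8.62 FPKM in Control and 10.3 and 8.91 FPKM in F. nucleatum, which overlapped, and the log2 fold change was 0.08 (SE 0.096, 95% interval -0.16 to 0.32). The m6A region ran from exon 14 to exon 18 (chr5:150409504-150415194, minus strand) and covered 1171 and 1199 nt in Control and 959 and 1020 nt in F. nucleatum. Both F. nucleatum lists were shorter (ratio 0.835), as for 17.8% of all names. The p did not separate the groups, at 3.2e-17, 1e-14, 5e-27 and 3.2e-14. The difference in length lay at the upstream end, where the main peak began at transcript positions 1661 and 1691 in Control and at 1931 in both F. nucleatum lists, with a short separate peak further upstream in F. nucleatum 2. The downstream end of the main peak reached the last base in 3 of the 4 lists, and in Control 1 a separate peak reached it.

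CYLD encodes a deubiquitinase that removes chains from TRAF2 and NEMO. Its mRNA was 1.11 and 1.25 FPKM in Control and 1.52 and 1.18 FPKM in F. nucleatum, and the groups overlapped (log2 fold change 0.11, SE 0.115, 95% interval -0.18 to 0.39). The region near its stop codon, in exons 18 and 19 (chr16:50828231-50830456, plus strand), was present in all 4 lists at 271, 301, 271 and 271 nt. The p, 1.1e-05 and 1.4e-05 for Control against 2.8e-09 and 2e-05 for F. nucleatum, overlapped. An upstream coding region was called in F. nucleatum 1 alone (p 0.0028).

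**Figure D4:**
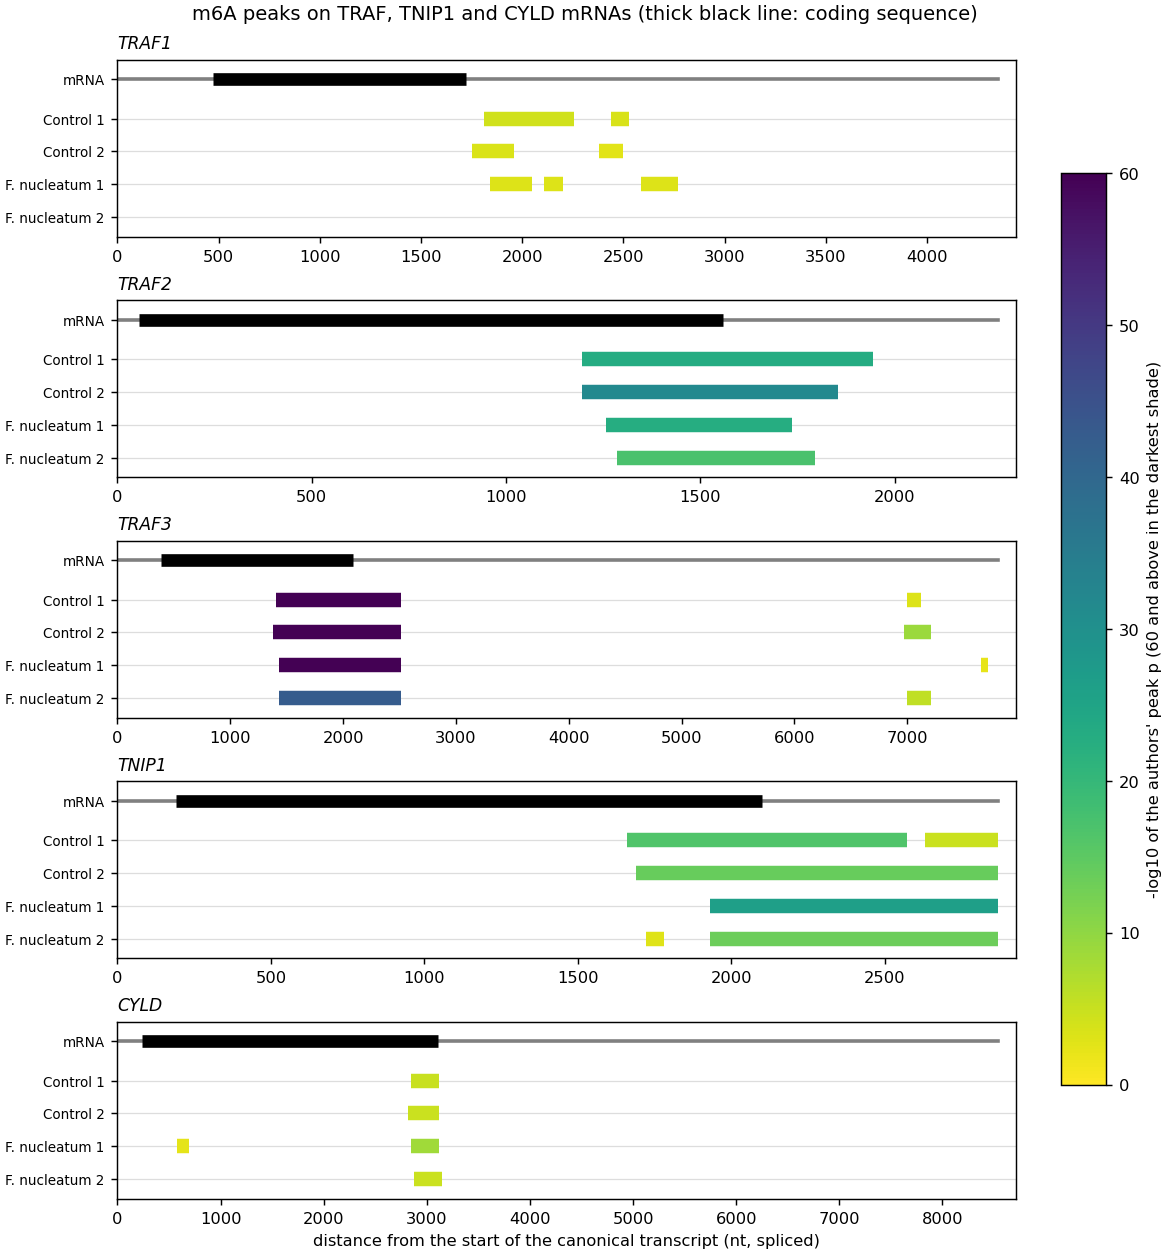
m6A peaks on TRAF1, TRAF2, TRAF3, TNIP1 and CYLD along the spliced canonical transcript (nt from its start, 1 row for each peak list, colour for −log10 of the authors' p, thick black line for coding sequence). TRAF1 has no peak in F. nucleatum 2, the TRAF2 and TNIP1 peaks are shorter in both F. nucleatum lists, and the main TRAF3 peak has nearly the same borders in all 4.

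Together the 10 genes held 29 peaks in each Control list and 33 in each F. nucleatum list. Without CFLAR there were 13 and 14 peaks in Control against 15 and 13 in F. nucleatum, so the difference of 4 peaks was mostly in CFLAR. Of the 35 regions, 1 was gained (BIRC3) and 1 was lost (TRAF1), beside 2.38% gained and 2.64% lost over all regions. When a reciprocal overlap of 50% was required, 5 were gained (2 in TNFAIP3, 2 in BIRC3 and 1 in CFLAR) and 1 was lost (TRAF1). Peaks were in all 4 lists for 17 regions, in 3 for 9, in 2 for 3 and in 1 for 6, against 51.5%, 10.8%, 12.1% and 25.6% of all regions. By the midpoint on the canonical transcript, 27 regions could be placed: 10 in coding sequence, 1 within 100 nt of the stop codon, 16 in 3′UTR and 0 in 5′UTR. The shares over all placed regions were 44.9%, 15.9%, 34.2% and 5.0%, and CFLAR gave 9 of the 16 in 3′UTR. A GGAC was present in 25 of the 35 regions, against 72.8% of all regions. The median GC content was 47.5% against 51.5%, and the median length was 421 nt against 325 nt.

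The promoters of the 10 genes were searched for the NF-kB consensus decamer, on both strands, in RefSeq windows from 250 bases before to 50 bases after each start site (GRCh38.p14). All 10 genes matched a window, and 6 had a match: TNFAIP3, TNIP1, BIRC3, CFLAR, TRAF3 and CYLD. The 10 genes had 21 windows, of which 7 held a match, against 11.3% of all 35116 windows. By gene, 13.3% of all 27305 had a match and 2.47% had at least 2 in one window, and these 10 genes had more windows each than genes did on average. TNIP1, CFLAR, TRAF3 and CYLD had matches without being called, and those of CYLD lay in different windows. TNFAIP3 and BIRC3, the genes called higher, were the 2 with at least 2 matches in one window. A link between matches and mRNA change was not tested. The matches of TNFAIP3 and BIRC3 are shown in capitals on the strand of the gene.
TNFAIP3, 67 bases before the start (chr6:137867192-137867201): tgactttGGAAAGTCCCgtggaaa
TNFAIP3, 55 bases before the start (chr6:137867204-137867213): gtcccgtGGAAATCCCCgggccta
BIRC3, 199 bases before the start (chr11:102317285-102317294): gggtcatGGAAATCCCCgagtggg
BIRC3, 135 bases before the start (chr11:102317349-102317358): taccgctGGAGTTCCCCtaagtcc
The matches describe letters in these windows, and binding was not measured.

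The genes whose pattern over the 4 inputs was closest to BIRC3, by the Euclidean distance of log2(FPKM + 1) from the Control mean among 11079 other genes, were ICAM1 (distance 0.177), NUAK2 (0.241) and IL6ST (0.250). ICAM1, an adhesion molecule, was 1.92 and 1.98 FPKM in Control and 9.15 and 8.30 FPKM in F. nucleatum. As ratios of mean FPKM, ICAM1, NUAK2 and IL6ST rose 4.47-fold, 7.95-fold and 10.0-fold, against 9.40-fold for BIRC3. The genes closest to TNFAIP3 were PLAU (0.171), ATF3 (0.187) and JUN (0.187). PLAU, the urokinase gene, was 27.8 and 25.4 FPKM in Control and 80.7 and 85.9 FPKM in F. nucleatum.

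To ask whether the rest of the receptor complex moved with A20 and cIAP2, 40 further genes were read from the same fit in 3 lists taken from textbook knowledge: the receptor complex and its kinases, ubiquitin editors and A20 partners, and other IAPs with their antagonists and caspases. Of these, 35 reached the level for the fit, namely 17 of 18, 11 of 12 and 7 of 10. None passed: 0 of 35 had an adjusted p under 0.05 by limma, and the lowest was 0.169. Since 0.803% of all genes were called, a count of 0 in 35 is near the background and says little about the pathway. At an unadjusted p under 0.05 there were 6 (2 higher and 4 lower), against 13.5% of all genes. The median log2 fold changes were 0.0803, 0.0509 and 0.0245, against 0.0136 for all genes.

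In the receptor complex list, MAP3K14, the NF-kB-inducing kinase whose level TRAF3 and the cIAPs hold down, was 10.9 and 10.8 FPKM in Control and 13.7 and 14.3 FPKM in F. nucleatum (log2 fold change 0.34, SE 0.069, limma adjusted p 0.169). Both F. nucleatum libraries were above both Control libraries. CHUK, the kinase IKK-alpha, was 8.38 and 12.3 FPKM against 11.8 and 15.3 FPKM, which overlapped (0.37, SE 0.197, limma adjusted p 0.469). Among ubiquitin editors, RNF31, the catalytic subunit of the linear ubiquitin ligase, was 16.1 and 14.6 FPKM against 12.7 and 11.9 FPKM (log2 fold change -0.30, SE 0.079, limma adjusted p 0.250). SPATA2, which links CYLD to that ligase, was 2.24 and 2.38 FPKM against 2.75 and 1.01 FPKM, where F. nucleatum 2 alone was low (-0.27, limma adjusted p 0.697). In the caspase list, CASP9, the initiator that XIAP inhibits, was 1.72 and 2.96 FPKM against 3.41 and 3.08 FPKM (0.37, SE 0.187, limma adjusted p 0.444). BIRC5, the survivin gene, was 84.0 and 88.9 FPKM against 77.2 and 78.9 FPKM (-0.15, SE 0.057, limma adjusted p 0.365). None of these 6 genes differed beyond the threshold after correction over all genes.

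**Figure D5:**
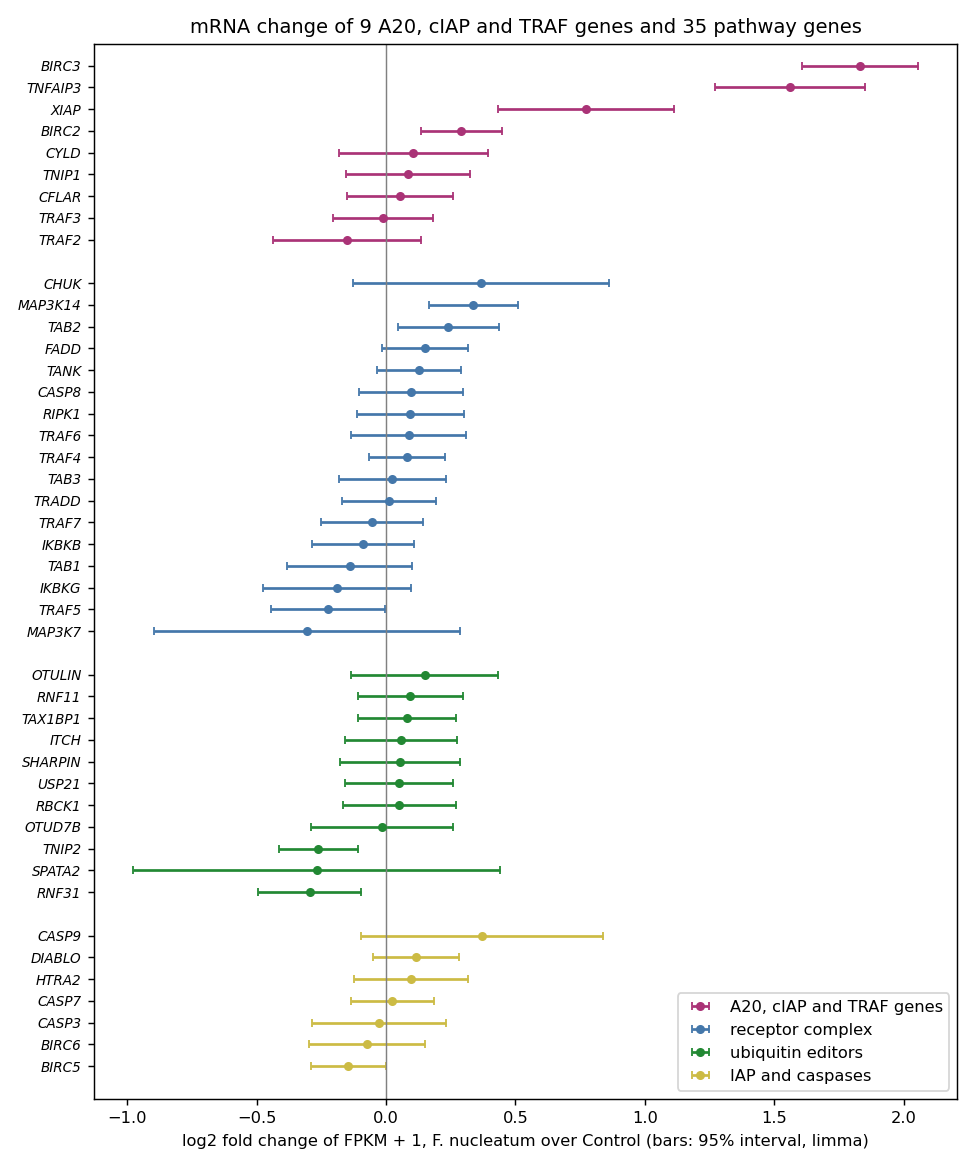
log2 fold change of FPKM + 1 in F. nucleatum over Control input libraries, with 95% intervals from limma (n = 2 for each group), for the 9 fitted A20, cIAP and TRAF genes and 35 further pathway genes. BIRC3, TNFAIP3 and XIAP lie to the right of the other members and of all pathway genes.

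The cells were checked by markers. Of 9 colon epithelial markers, 7 were at or above 1 FPKM in all inputs (EPCAM, KRT8, KRT18, KRT19, KRT20, CDH1 and CDX2), and VIL1 and LGALS4 were below 0.3. Of 10 markers of other cell types, 8 were below 0.3, and CD68 and COL1A1 were above 1. The summed epithelial list was 5176.5 and 4799.9 FPKM in Control and 4356.9 and 4725.7 FPKM in F. nucleatum, lower in both treated libraries. Most of this sum came from KRT8, KRT18 and KRT19, with Control means of 2282, 1330 and 1189 FPKM. The single markers differed: KRT8, KRT18 and CDX2 were lower in both treated libraries, EPCAM and CDH1 were higher in both, and KRT19 and KRT20 overlapped. The summed list of other cells was at most 13.2 FPKM in Control and 14.9 and 14.3 FPKM in F. nucleatum, higher in both. COL1A1 was higher in both treated libraries, while CD68 overlapped. The part of these shifts in the results was not tested. The lists held 17039 to 18365 peaks. Absolute depth is unknown. Ratios of values at or below 0.05 FPKM put the inputs at 1.11 (Control 2), 1.24 (F. nucleatum 1) and 0.911 (F. nucleatum 2) relative to Control 1, although only 7 to 12 of 261 to 326 genes shared the most frequent ratio.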

How the data were processed

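RNA of HCT116 cells, treated with PBS or F. nucleatum in 2 replicates that the methods call biological, was sequenced as m6A IP and input. The authors aligned reads to hg19 with HISAT2 2.1.0 and deposited FPKM of the 4 inputs from StringTie. They trimmed with cutadapt by the methods and with Trim Galore 0.3.3 by the submitters' processing notes. Each deposited peak list held 1 replicate with exon blocks, a gene name and a score, read here as the authors' p-value before correction. Among the peaks of the genes described here, this score was at most 0.012. The methods name MACS2, whereas the layout is that of exomePeak, and the program behind the lists is uncertain. No fold enrichment, q-value or summit was given. Absolute depth is unknown.

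FPKM were tested as log2(FPKM + 1) with limma 3.58.1 in R 4.3.3 (eBayes with trend) for 11088 genes whose mean reached 1 FPKM, with Benjamini-Hochberg adjustment over all of them. The count model of the methods needs counts. The fit was tested on simulated data. Peaks on the same strand sharing at least 1 base of exon blocks were merged into regions and placed on canonical GENCODE release 44 transcripts (GRCh37) when at least 90% of their bases lay there. Other steps used Python 3.11.15. The members and gene lists were chosen with earlier results of these data known. All members were named, with the 2 pathway genes of the largest change in each list, the 3 genes nearest to each of the 2 members that changed most, and regions gained, lost or strongest. Further regions of members were described after their values were seen. Between treatments, samples sharing a replicate number share only that number. Within a treatment, each peak list was given for the IP and the input of the same replicate number. Alternatives were pseudocounts, filters, scalings, GC correction, a replicate block, peak thresholds, overlap and leaving out each library.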

Additional observations from a re-analysis of the deposited data

How the results depend on the processing

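With 2 libraries for each group, peak calls without a value where none was made, and FPKM in place of counts, small differences could not be resolved here. The number of member genes called was 2 (TNFAIP3 and BIRC3) under 11 of the 13 alternatives. It was 3 without Control replicate 2, with XIAP added, and 1 without F. nucleatum replicate 2, where BIRC3 remained, a range of 1 to 3 with 1 library left out, when the lone library is assumed to vary like the other group. Among the other pathway genes 0 were called under each alternative. Over all genes 89 were called, but 40 with no filter on low values and 16 to 284 with 1 library left out. The log2 fold change of BIRC3 was 2.97 and that of XIAP 1.23 with a pseudocount of 0.1. With 1 library left out SPATA2 ranged from -0.72 to 0.18, its sign turning without F. nucleatum replicate 2. Over 16 genes and 196 single-gene alternatives, 179 left the value of a member within its replicate spread or that of another gene with its sign and on its side of the threshold, 16 moved it beyond that spread and 1 turned a sign. Within their spread, TNIP1 ranged from -0.01 to 0.18 and TRAF3 from -0.06 to 0.04 with 1 library left out.

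With the replicate number as a block, 90 genes were called in all, 2 of them members, and no pathway gene. The deviations of same-numbered libraries correlated at 0.0243 over 2 pairs, so the numbers were not treated as pairing.

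Of the member regions 2 were gained or lost, but 6 with a reciprocal overlap of 50%, 4 at a peak p of at most 0.001 (2 in CFLAR and 2 in BIRC3, all gained, with none in TRAF1 lost), 4 at a peak p of at most 1e-05 (both TNFAIP3 and both BIRC3 regions, all gained) and 4 to 9 with 1 list left out, where fewer lists had to meet the criterion. The mean difference in member peaks between F. nucleatum and Control lists was 4, 3.5 at a peak p of at most 0.001 and 0.5 without CFLAR, an alternative chosen after seeing the data, and 4 to 4 with 1 list left out.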
